A study of Mus musculus with 14 samples.

Results

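The immunity-related GTPases are interferon-inducible GTP-binding proteins that act inside the infected cell. Their transcripts were followed in 3 mouse tumour lines exposed either to an agonist of RIG-I or to a control agonist. The members were a list of 8 gene symbols, Irgm1, Irgm2, Igtp, Iigp1, Tgtp1, Tgtp2, Gm12250 (the gene of Irgb10) and Gvin1, matched through their Ensembl identifiers, out of 34866 identifiers in the deposited tables. All 8 were found. Of these lines, CT26 comes from a colorectal carcinoma of BALB/c mice, whereas E0771 (mammary carcinoma) and MC38 (colon adenocarcinoma) are C57BL/6. Cells were plated at 100000 per well, received 0.5 ug/ml of either agonist, and were lysed after 24 h for stranded poly(A)-selected RNA sequencing. CT26 had 3 control and 3 treated libraries, and E0771 and MC38 each had 2 of both kinds, which makes 14. The chemical identity of both agonists, how they were delivered, and whether libraries came from separate cultures are unknown from the labels, so the replicate spread behind every p-value may be technical.

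RIG-I is a cytosolic sensor of viral RNA whose activation leads to transcription of type I interferon, which in turn acts through its receptor and JAK kinases on interferon-stimulated genes. The GTPases studied here belong to that set. Irgm1, Irgm2 and Igtp (Irgm3) form the regulatory GMS subgroup, named after a motif in the nucleotide-binding loop. They sit on the cell's own membranes and hold the effector subgroup, GKS, in its inactive state. The GKS effectors Iigp1 (Irga6), Tgtp1 and Tgtp2 (both Irgb6) and Gm12250 (Irgb10) load onto vacuoles that hold parasites or bacteria and disrupt them, with help from the autophagy conjugation machinery and from guanylate-binding proteins. Gvin1 is a member of the very large inducible GTPases, a related family of much larger proteins whose function is poorly known.

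Of the members, 6 lie on chromosome 11 in the GENCODE M21 annotation of GRCm38, with the minus-strand genes in a cluster apart from the plus-strand genes. Irgm1 is at chr11:48861968-48871683, Tgtp1 at chr11:48985327-48994172 and Tgtp2 at chr11:49057194-49064206, all on the minus strand. On the plus strand, Gm12250 is at chr11:58187739-58189012, Igtp at chr11:58199556-58207591 and Irgm2 at chr11:58199618-58222782, and the annotated span of Irgm2 overlaps Igtp. Iigp1 and Gvin1 lie elsewhere and are placed where they are described. GENCODE M21 lists Gm12250 as a processed pseudogene of 1274 bases, and the other 7 as protein coding.

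Promoter sequences of 6 members were taken from RefSeq (GRCm38.p6, 250 bases before to 50 after each start site). Iigp1 and Gvin1 had no entry among the promoters used, so they were not searched. The 6 are shown because all hold a match to the interferon-stimulated response element and 5 also to the gamma-activated site. The response element is a site of IRF-family proteins, and was searched as GAAA, any 2 bases and GAAA again. The gamma-activated site is another interferon-responsive element and was searched as TTCNNNGAA. Both strands were read, and a match that reads the same on both strands was counted once. Each stretch below runs 5′ to 3′ on the gene's own strand from 20 bases before its leftmost match to 20 bases after its rightmost match, and capitals mark the matches.
Irgm1, chr11:48871415-48871470, minus strand: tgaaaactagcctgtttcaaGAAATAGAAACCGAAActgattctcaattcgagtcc
Irgm2, chr11:58214882-58214942, plus strand: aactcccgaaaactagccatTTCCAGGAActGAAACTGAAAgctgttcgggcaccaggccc
Igtp, chr11:58199491-58199551, plus strand: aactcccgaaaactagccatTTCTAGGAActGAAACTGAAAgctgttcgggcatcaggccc
Tgtp1, chr11:48992294-48992354, minus strand: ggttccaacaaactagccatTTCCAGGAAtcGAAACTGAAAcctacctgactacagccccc
Tgtp2, chr11:49064253-49064313, minus strand: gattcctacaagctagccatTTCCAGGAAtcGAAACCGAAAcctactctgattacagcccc
Gm12250, chr11:58183732-58183826, plus strand: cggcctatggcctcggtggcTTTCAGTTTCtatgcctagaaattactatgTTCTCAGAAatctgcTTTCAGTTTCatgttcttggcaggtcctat

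In Irgm2, Igtp, Tgtp1 and Tgtp2 the 2 motifs stood in the same order, strand and spacing. The gamma-activated site came earlier, and the response element began 11 bases after the start of that site, with 2 bases between them. Between Irgm2 and Igtp 2 of the 61 bases differed, between Tgtp1 and Tgtp2 14, and between a GMS and a Tgtp gene 18 to 22. Irgm1 held 2 overlapping response elements starting 30 and 24 bases before its start site, and no match to the gamma-activated site in this window. Gm12250 held its motifs in another layout, with 2 response elements on the opposite strand, starting at 91 and 46 bases before the start site, and the gamma-activated site between them at 61. Its RefSeq start lies upstream of the GENCODE model given above. The stretches of Irgm1, Irgm2 and Tgtp1 lie inside the GENCODE spans given above, so positions here refer to the RefSeq start sites only. Among all 32851 promoter entries of the same length, 3.44% held the response element, 8.3% the gamma-activated site and 0.454% both. The joint arrangement, a gamma-activated site, any 2 bases and a response element, was written down after the sequences had been seen and occurred in 5 entries, those of Igtp, Irgm2, Tgtp1, Tgtp2 and Gm12185, a relative of the same family. Gm12185 overlaps Tgtp1 on the same strand, and its arrangement began 86 bases before its start site, against 88 in Tgtp1. Whether these are the same genomic site was not checked, so the 5 entries may not be independent. A match is a description of letters and not evidence of binding.

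**Figure D1:**
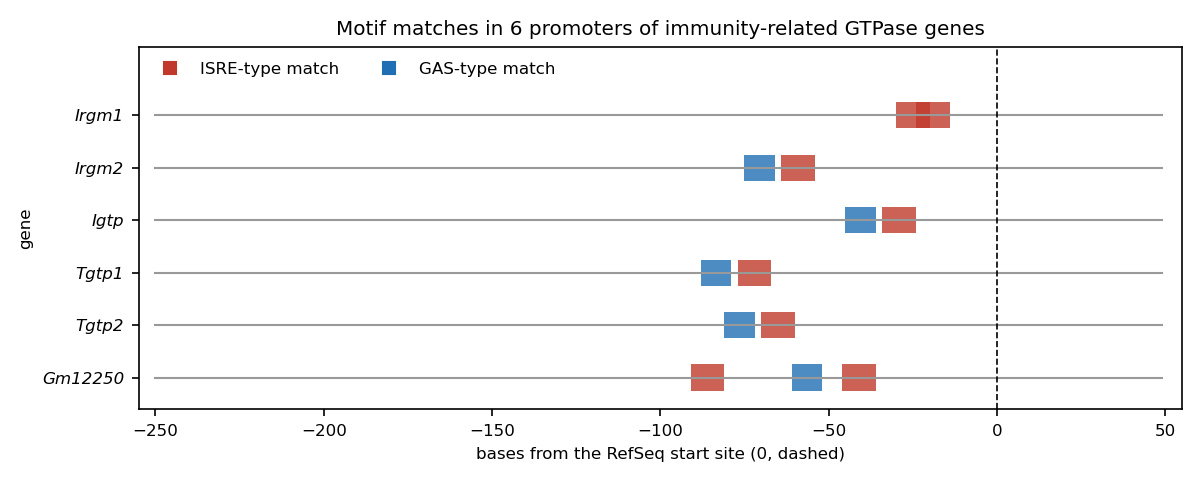
Position of each motif match (red, response element; blue, gamma-activated site) along the promoter window of 6 members, in bases from the RefSeq start site; every match lies within 91 bases upstream of the start. The 4 genes with the shared layout differ in its distance to the start site, from 45 bases in Igtp to 88 bases in Tgtp1.

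Estimated counts per library totalled 32826742 to 40564102 (CT26), 12413347 to 13399247 (E0771) and 12347361 to 18964563 (MC38). A level of 3 counts therefore corresponds to 0.074 to 0.0914 CPM (counts scaled to library size) for CT26 libraries, 0.224 to 0.242 CPM for E0771 and 0.158 to 0.243 CPM for MC38. Across genes, the fitted biological coefficient of variation of E0771 was 0.202, against 0.102 for CT26 and 0.0304 for MC38, so the same fold change was harder to call in E0771. 

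The labelled cell types were only partly visible in their markers. Of 5 epithelial markers, Krt8 carried E0771 at 209 to 278 CPM and Krt18 carried CT26 at 15.4 to 24.9 CPM, while all 5 summed to 0.158 to 0.614 CPM in MC38, and Epcam was at 0 in every library but 1. The fibroblast marker sum was high in CT26 (1148 to 1652 CPM), with 160 to 284 CPM for E0771 and 50.8 to 80.4 CPM for MC38. In treated CT26 cells it was mostly Col1a2, with 111249 counts. With the control agonist, 3 of the 5 fibroblast markers were called higher in CT26 than in MC38 and 2 lower (73.6% of all genes called). Against E0771, 3 were called higher in CT26 and 1 lower (70.3% of all genes called). The 8 leukocyte markers summed to 3.03 to 12.5 CPM over all libraries, most of it Cd68, with Ptprc at most 0.691 CPM and Cd3e and Adgre1 at 2 counts or fewer in any group. Some of these moved with the agonist: in CT26 the leukocyte sum was 3.03 to 3.57 CPM with the control and 4.27 to 5.10 CPM when treated, and the endothelial sum 1.06 to 2.21 and 3.07 to 3.37 CPM. The leukocyte and endothelial markers called there were Fcgr1, with 2 control and 41 treated counts (ratio 21.5, exact 95% interval 5.57 to 183, counting error only), and Kdr, with 1 and 108 counts (ratio 113, 19.9 to 4507). Treated fibroblast sums lay below the controls in CT26 (1148 to 1182 against 1298 to 1652 CPM) and in MC38 (50.8 to 56.2 against 80.1 to 80.4 CPM). Of the 5 fibroblast markers, 4 were called lower in CT26 (18.6% of all genes called lower) and 3 in MC38 (17%). Of 2 epithelial markers tested in CT26, 1 was called lower. The part of these markers in the results that follow was not tested. In bulk RNA, more cells expressing a gene and more RNA per cell cannot be told apart.

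**Figure D2:**
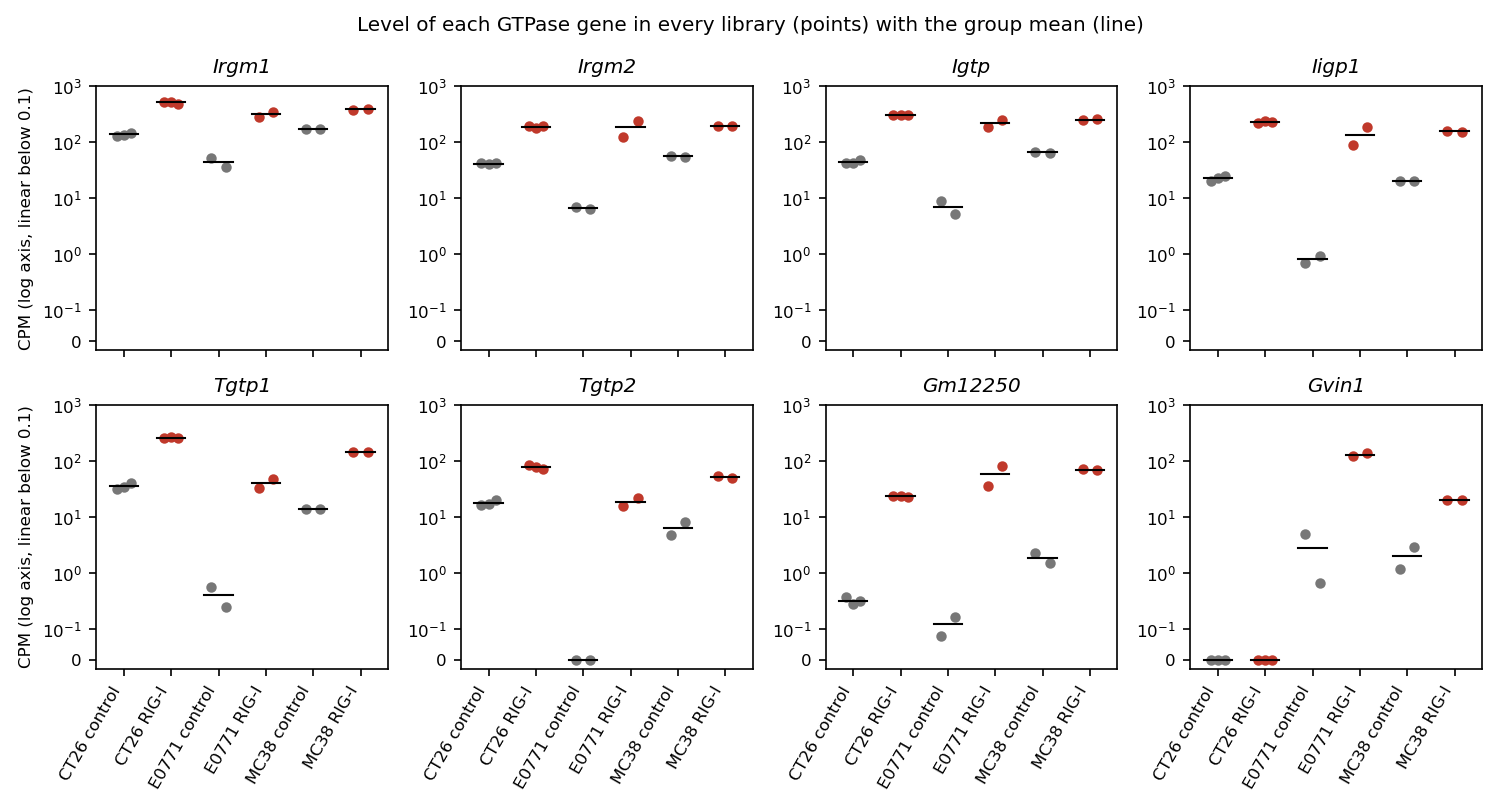
CPM of each gene in every library (points; grey control agonist, red RIG-I agonist) with the group mean as a line, on an axis that is logarithmic above 0.1 and linear below. Except for Gvin1 in CT26, which is at 0 throughout, the red points of a line lie above its grey points in every panel, and the E0771 controls are the lowest group for every gene but Gvin1.

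The RIG-I agonist raised every member that could be tested. In CT26, 7 of 7 tested members were called higher at an adjusted p under 0.05, against 19.8% of all genes tested (18.6% were called lower). In E0771 it was 8 of 8, against 1.53%, and in MC38 8 of 8, against 18.9% higher and 17% lower. Every RIG-I library lay above every control library for all these members, a separation that 26.4%, 20.4% and 33.4% of all genes showed in CT26, E0771 and MC38. Their median log2 fold changes were 2.77 for CT26, 6.06 for E0771 (also with bounded genes at their bounds) and 2.99 for MC38, while the median over all genes was 0.00, -0.01 and 0.00. These p-values come from the edgeR quasi-likelihood test with Benjamini-Hochberg adjustment over all genes of that line.

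Among the GMS regulators, Irgm1 had the smallest fold change of all members in each line, from high control levels. In CT26 it was at 130.5, 135 and 146 CPM with the control and at 521, 522 and 485 CPM with the RIG-I agonist. In E0771 the controls were at 50.8 and 35.3 CPM and the treated libraries at 277 and 347 CPM, and in MC38 170.4 and 173 CPM stood against 371 and 395 CPM. No library of one agonist overlapped the other. The log2 fold changes were 1.89 (SE 0.07, adjusted p = 4.52e-11) in CT26, 2.86 (SE 0.24, adjusted p = 0.00999) in E0771 and 1.16 (SE 0.04, adjusted p = 4.12e-16) in MC38.

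Irgm2 started lower and reached nearly the same level in all 3 lines. Its controls were at 42.5, 39.7 and 41.3 CPM in CT26, at 6.93 and 6.41 CPM in E0771 and at 57.2 and 54.4 CPM in MC38. With the RIG-I agonist it was at 195, 175 and 193 CPM in CT26, at 124 and 241 CPM in E0771 and at 195 and 189 CPM in MC38. The treated E0771 libraries lay far apart, and the ranges of the 3 treated groups overlapped. The log2 fold changes were 2.19 (SE 0.06, adjusted p = 2.35e-12), 4.77 (SE 0.39, adjusted p = 0.00952) and 1.78 (SE 0.05, adjusted p = 5.26e-18) in CT26, E0771 and MC38.

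Igtp, a regulator found on the endoplasmic reticulum and on lipid droplets, behaved like Irgm2 with a wider range. CT26 went from 42.5, 42.1 and 48.4 CPM to 304, 302 and 301 CPM. E0771 went from 8.80 and 5.26 CPM to 187 and 247 CPM, and MC38 from 67.0 and 64.2 CPM to 246 and 254 CPM. The treated CT26 libraries were nearly level, and again those of E0771 lay apart. The log2 fold changes were 2.77 (SE 0.06, adjusted p = 2.98e-13), 4.94 (SE 0.31, adjusted p = 0.00594) and 1.93 (SE 0.04, adjusted p = 5.48e-19). Irgm2 and Igtp share 326 sequence words of 31 bases, 9.16% of the words of Irgm2 and 15.9% of those of Igtp, so reads from these stretches cannot be assigned to either gene by sequence alone.

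Of the GKS effectors, Iigp1 (Irga6) coats the vacuole of Toxoplasma. It lies at chr18:60376027-60392634 on the plus strand. Its CT26 controls were at 20.5, 22.7 and 25.1 CPM and its treated libraries at 220.5, 237 and 231 CPM. In E0771 it was nearly silent with the control, at 0.701 and 0.904 CPM (9 and 11 counts), and at 87.2 and 185 CPM with the RIG-I agonist. In MC38 it went from 19.8 and 20.5 CPM to 159 and 152 CPM. The log2 fold changes were 3.33 (SE 0.07, adjusted p = 2.75e-13), 7.39 (SE 0.55, adjusted p = 0.00761) and 2.95 (SE 0.06, adjusted p = 5.59e-20).

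Tgtp1 and Tgtp2 encode near-identical Irgb6 proteins, and 83.2% of the 31-base words of Tgtp1 occur in Tgtp2 too, so the split between them is uncertain. Tgtp1 was at 30.8, 34.5 and 39.9 CPM in the CT26 controls and at 254, 261 and 258 CPM in the treated libraries. In E0771 it had 7 and 3 counts with the control (0.545 and 0.247 CPM) and was at 32.8 and 46.5 CPM with the RIG-I agonist. MC38 went from 13.96 and 13.7 CPM to 143 and 142 CPM. The log2 fold changes of Tgtp1 were 2.88 (SE 0.08, adjusted p = 2.32e-11), 6.60 (SE 0.39, adjusted p = 0.00491) and 3.36 (SE 0.06, adjusted p = 2.15e-20).

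Tgtp2 followed at a lower level. It was at 16.1, 16.7 and 19.5 CPM in the CT26 controls and 82.4, 78.6 and 69.9 CPM in the treated libraries, with a log2 change of 2.15 (SE 0.09, adjusted p = 1.29e-10). In E0771 both controls had 0 counts and the treated libraries were at 15.4 and 21.3 CPM (195 and 290 counts), at least 153-fold higher against a floor of 3 counts over the group (adjusted p = 0.00987). MC38 rose from 4.63 and 7.99 CPM to 52.4 and 49.03 CPM, by 3.03 (SE 0.17, adjusted p = 1.02e-05). Summed, Tgtp1 and Tgtp2 rose from 52.5 ± 6.38 to 335 ± 6.33 CPM in CT26 (SD, n = 3), from 0.396 ± 0.211 to 58.0 ± 13.8 CPM in E0771 (SD, n = 2) and from 20.1 ± 2.16 to 193 ± 3.11 CPM in MC38 (SD, n = 2). The fold changes of the sum on the log2 scale, fitted with Tgtp1+Tgtp2 as 1 feature, were 2.67 (SE 0.08), 7.15 (SE 0.38) and 3.27 (SE 0.06), so the rise does not rest on how reads were split.

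Gm12250 (Irgb10), an effector that also attacks bacterial membranes, had the largest fold change in CT26 and in MC38. In CT26 it went from 13, 11 and 12 counts (0.361, 0.273 and 0.312 CPM) to 23.8, 23.1 and 22.8 CPM, with a log2 change of 6.20 (SE 0.12, adjusted p = 9.1e-14). In MC38 it went from 2.25 and 1.46 CPM to 70.2 and 68.2 CPM, by 5.19 (SE 0.12, adjusted p = 6.6e-19). In E0771 the 2 controls held 1 and 2 counts, and the treated libraries were at 36.0 and 81.1 CPM. The ratio of counts there was 495, with an exact 95% interval of 169 to 2404 that covers counting error only (adjusted p = 0.00952). Gm12250 shares no 31-base word with another transcript, so its reads cannot be shared with annotated genes at that length. Its call in E0771 ended without control replicate 1 or 2, at adjusted p = 0.0607 and 0.0652.

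**Figure D3:**
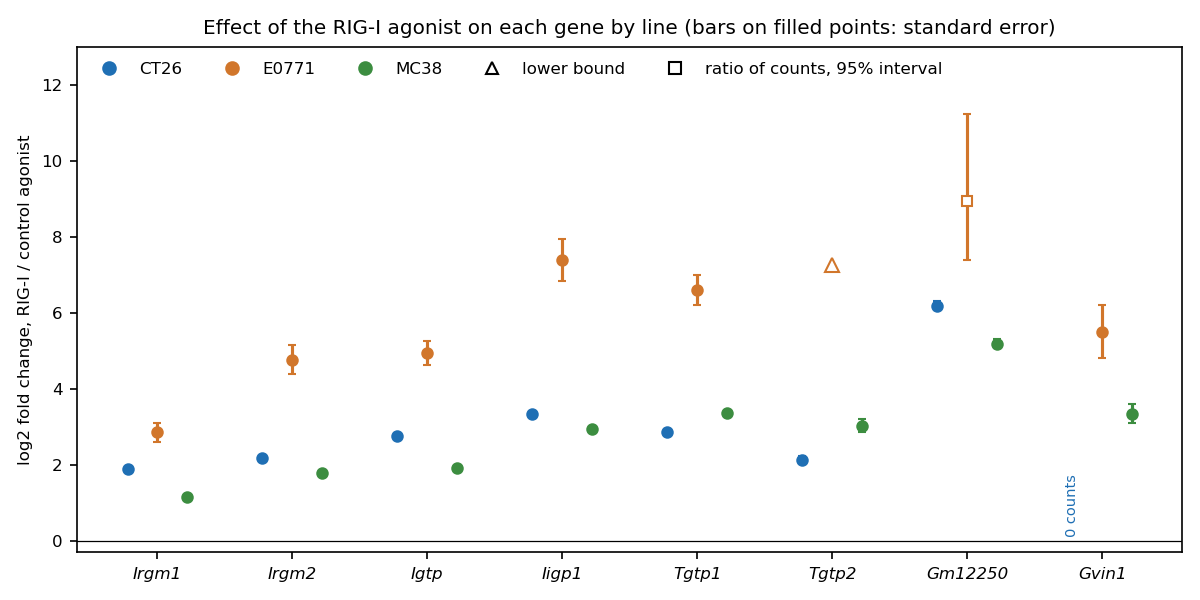
Log2 fold change of the RIG-I over the control agonist for each gene and line; filled points carry the standard error, the open triangle is a lower bound (Tgtp2 in E0771, no control counts) and the open square is a ratio of counts with its exact 95% interval (Gm12250 in E0771, 3 control counts). The E0771 value is the highest of the lines for every gene, and Gvin1 has no value in CT26, where it had 0 counts.

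Gvin1 lies at chr7:106156556-106215326 on the minus strand and could hardly be told from its neighbour. Of the 9005 words of 31 bases in its transcripts, 31 were found in no other gene's transcripts, and 99.0% occur in Gm4070, another very large inducible GTPase gene at chr7:105895139-105953967. Gvin1 was listed at 0 in all 6 CT26 libraries, while Gm4070 was at 151, 154 and 180.3 CPM in the CT26 controls and at 595, 627 and 598 CPM in the treated ones. In E0771 Gvin1 was at 4.90 and 0.658 CPM with the control (63 and 8 counts) and at 121 and 136 CPM with the RIG-I agonist, and Gm4070 at 2.10 and 0.658 against 102 and 80.8 CPM. In MC38 Gvin1 went from 1.16 and 2.84 CPM to 19.5 and 20.2 CPM, and Gm4070 from 1.16 and 0 CPM to 13.7 and 14.3 CPM. CT26 is the only BALB/c line here and the reference is C57BL/6, so strain and line cannot be told apart for this split.

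The log2 fold change of Gvin1 was 5.51 (SE 0.70, adjusted p = 0.0343) in E0771 and 3.35 (SE 0.24, adjusted p = 3.68e-06) in MC38. That of Gm4070 was 1.90 (SE 0.08, adjusted p = 1.38e-10) in CT26, 6.03 (SE 0.45, adjusted p = 0.00761) in E0771 and 4.46 (SE 0.76, adjusted p = 0.0414) in MC38. The E0771 call of Gvin1 was lost when either treated library was left out, with an adjusted p of 0.515 or 0.434. With Gvin1+paralogues (Gm4070, Gm8979 and Gm8995) summed into 1 feature, a choice made after the data had been seen, the changes were 1.96 (SE 0.08, adjusted p = 1.19e-10) in CT26, 4.93 (SE 0.81, adjusted p = 0.0783) in E0771 and 3.47 (SE 0.11, adjusted p = 1.75e-16) in MC38. Gvin1 and Gm4070 together went from 162 ± 15.8 to 607 ± 17.6 CPM in CT26 (SD, n = 3), from 4.16 ± 4.02 to 220.1 ± 5.17 CPM in E0771 and from 2.58 ± 0.371 to 33.8 ± 0.942 CPM in MC38 (SD, n = 2 each). The line listed at 0 for Gvin1 thus held the highest sum. Gvin1 alone was at least 108-fold higher in E0771 than in CT26 with the control agonist, and at least 4704-fold with the RIG-I agonist, while the sum with its paralogues was higher in CT26, by 4.24 (SE 0.50) and 1.24 (SE 0.40) on the log2 scale. The first bound rests mostly on 1 of the E0771 control libraries, at 4.90 CPM against 0.658 CPM in the other.

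**Figure D4:**
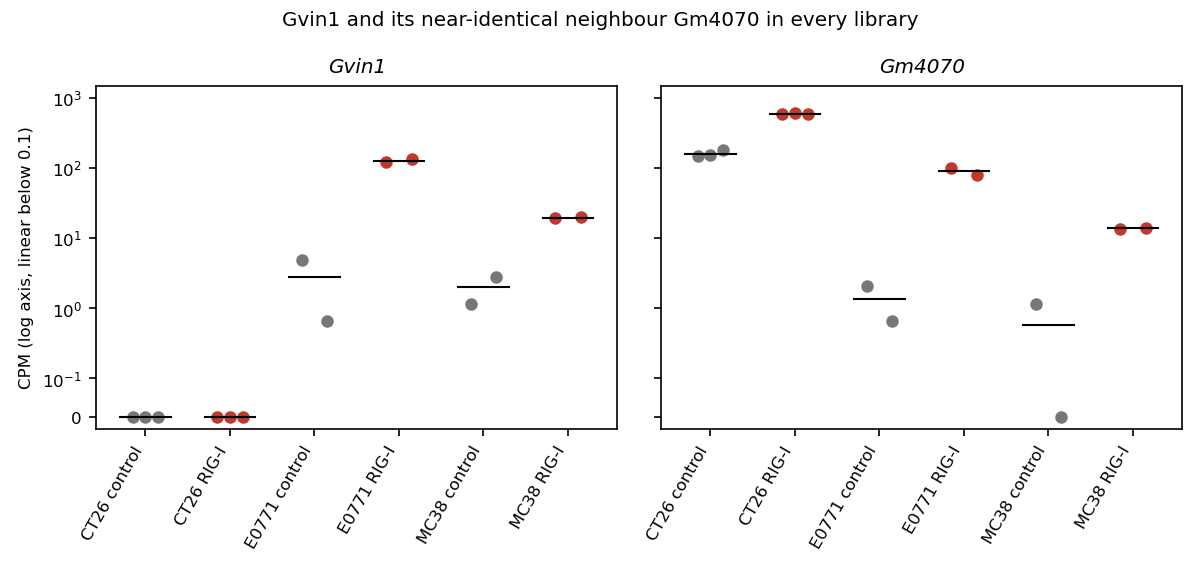
CPM of Gvin1 (left) and Gm4070 (right) in every library (grey control, red RIG-I agonist; lines are group means), logarithmic above 0.1. Gvin1 is at 0 in CT26 where Gm4070 reaches 595 to 627 CPM, while both genes carry counts in E0771 and MC38.

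The rise in E0771 exceeded that in the other lines for most members. In the fit of all 14 libraries, the RIG-I effect in CT26 minus that in E0771 was called for 6 of 7 members, all lower in CT26, against 2.81% of all genes called lower and 3.88% called in either direction. The differences were -1.005 (SE 0.18) for Irgm1, -2.63 (SE 0.32) for Irgm2, -2.21 (SE 0.22) for Igtp, -4.11 (SE 0.55) for Iigp1 and -3.78 (SE 0.38) for Tgtp1 on the log2 scale, with adjusted p between 0.00013 and 0.00808. Tgtp2 was called too (adjusted p = 0.000346), but with no E0771 control counts its difference has no size. That of Gm12250 was -2.72 (SE 1.10, adjusted p = 0.234) and rests on 3 E0771 control counts.

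E0771 minus MC38 gave 6 of 8 members higher in E0771, against 1.8% of all genes called higher and 2.09% in either direction. The values were 1.69 (SE 0.20) for Irgm1, 2.98 (SE 0.35) for Irgm2, 3.00 (SE 0.24) for Igtp, 4.44 (SE 0.58) for Iigp1 and 3.24 (SE 0.42) for Tgtp1, and Tgtp2 had an adjusted p of 0.0023. Gm12250 (3.66, SE 1.01, adjusted p = 0.109) and Gvin1 (2.15, SE 1.005, adjusted p = 0.473) did not pass. Gm12250 was called under DESeq2 (adjusted p = 0.00471) and without either treated E0771 library (4.59e-05 and 0.0025). Both contrasts use the same 4 E0771 libraries. Under limma with a variance factor for each line, Iigp1, Tgtp1 and Tgtp2 lost their calls in both contrasts, with adjusted p of 0.218, 0.0721 and 0.0937 against CT26 and 0.204, 0.195 and 0.237 against MC38, while Irgm1, Irgm2 and Igtp kept theirs.

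Between CT26 and MC38 the effects were closer. Igtp rose more in CT26, by 0.79 (SE 0.19, adjusted p = 0.0416), the only member called of 7, against 1.98% of all genes called higher and 3.8% in either direction. Irgm1 was 0.68 (SE 0.18, adjusted p = 0.0532) and Irgm2 0.35 (SE 0.28, adjusted p = 0.545) in the same direction, as were Gm12250 (0.94, SE 0.57, adjusted p = 0.417) and Iigp1 (0.33, SE 0.34, adjusted p = 0.652). Tgtp1 was at -0.54 (SE 0.19, adjusted p = 0.153) and Tgtp2 at -0.93 (SE 0.26, adjusted p = 0.0788), in the other. This count was not stable: leaving out 1 library at a time gave 0 to 6 members, 0 without any one CT26 or MC38 library except MC38 control replicate 2, and 6 without either treated E0771 library.

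Among the controls, the lines differed most in E0771, where the GMS and GKS genes were lowest. With the control agonist, CT26 minus E0771 was 1.79 (SE 0.14) for Irgm1, 2.74 (SE 0.26) for Irgm2, 2.76 (SE 0.18) for Igtp, 4.94 (SE 0.46) for Iigp1 and 6.55 (SE 0.28) for Tgtp1, and Tgtp2 was at least 145-fold higher in CT26. E0771 minus MC38 was -2.01 (SE 0.15), -3.07 (SE 0.28), -3.23 (SE 0.19), -4.66 (SE 0.50) and -5.10 (SE 0.33) for the same 5 genes, and Tgtp2 was at least 51.3-fold higher in MC38. All were called, but so were 70.3% and 64.1% of all genes in these contrasts, so a called difference between lines is common. Between CT26 and MC38 controls, Igtp (-0.46) and Gm12250 (-2.46) were lower in CT26 and Tgtp1 (1.44) and Tgtp2 (1.58) higher, Gvin1 was listed at 0 in CT26, and Irgm1, Irgm2 and Iigp1 were not called, with 73.6% of all genes called. Gm12250 was at 3 counts in the E0771 controls, and MC38 was higher by a ratio of counts of 15.8 (exact 95% interval 5.11 to 78.8), while CT26 was at a ratio of 2.62 (0.827 to 13.3, adjusted p = 0.281).

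For Irgm1, Irgm2, Igtp, Iigp1 and Tgtp1 the means of the 3 lines lay closer together with the RIG-I agonist. For Irgm2 the highest control mean was 8.36 times the lowest, and the highest treated mean 1.05 times the lowest. The same ratio went from 9.33 to 1.39 for Igtp, from 28.4 to 1.69 for Iigp1, from 3.99 to 1.63 for Irgm1 and from 88.6 to 6.49 for Tgtp1. Between E0771 and MC38, the treated levels of Irgm1, Irgm2, Igtp, Iigp1 and Gm12250 differed by -0.32 to -0.09 on the log2 scale with no call, at adjusted p from 0.063 to 0.733. Of these, Irgm1 was called under DESeq2 (adjusted p = 0.0276), RLE size factors (0.0474), protein-coding genes only (0.0454) and limma (0.0216). All 5 were called without E0771 RIG-I replicate 2, at -1.004 to -0.48. Tgtp1 (-1.86, SE 0.15) and Tgtp2 (-1.49, SE 0.20) remained lower in E0771, and Gvin1 was higher there (2.67, SE 0.52, adjusted p = 0.0062), 3 of 8 called against 62.3% of all genes. That Gvin1 call ended without E0771 RIG-I replicate 2 (adjusted p = 0.0534) and without MC38 RIG-I replicate 1 (0.0531), and with the control agonist the value was 0.52 (SE 0.85, adjusted p = 0.629). Treated CT26 minus treated E0771 was 0.78 for Irgm1, 0.55 for Igtp, 0.83 for Iigp1, 2.77 for Tgtp1, 2.14 for Tgtp2 and -1.26 for Gm12250, all called, and 0.11 for Irgm2 (adjusted p = 0.632), with 70.7% of all genes called. Called values between treated CT26 and MC38 were 0.46 for Irgm1, 0.32 for Igtp, 0.61 for Iigp1, 0.91 for Tgtp1, 0.65 for Tgtp2 and -1.52 for Gm12250, with 73.9% of all genes called. Line cannot be told apart from count table and any sequencing batch, nor CT26 from its greater depth. The depths of E0771 and MC38 overlapped, and their column names share a prefix whose meaning is not given. Control levels may include a response to the control agonist, since no untreated cells were analysed here.

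Ordered by group mean, the 3 treated groups came before all controls for the GMS genes, Iigp1 and Gm12250, and the E0771 controls came last. Between them, the MC38 controls were above the CT26 controls for Irgm1, Irgm2, Igtp and Gm12250, and below them for Iigp1. For Irgm1 no neighbouring groups overlapped. For Irgm2 the treated groups of all lines overlapped, and for Igtp and Iigp1 those of MC38 and E0771 did. These levels are on each line's own scale. For Igtp the overlap was slight, with the lowest MC38 library at 246.0 CPM and the highest E0771 library at 246.5 CPM. A joint scale for all lines multiplies these by 0.981 and 0.971, so this overlap depends on the scale. For Tgtp1 and Tgtp2, treated E0771 cells, at 39.7 ± 9.71 and 18.3 ± 4.13 CPM (SD, n = 2), overlapped the CT26 controls at 35.1 ± 4.62 and 17.4 ± 1.81 CPM (SD, n = 3). Gm12250 was highest in treated MC38 (69.2 ± 1.42 CPM) and treated E0771 (58.5 ± 31.9 CPM), which overlapped, and lower in treated CT26 (23.3 ± 0.516 CPM).

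In treated E0771 cells, replicate 2 was above replicate 1 for all 8 members, against 50.2% of all genes tested. In the other groups of 2 libraries it was above for 2 of 8 members in the E0771 controls, 4 of 8 in the MC38 controls and 3 of 8 in treated MC38 cells. The 8 leukocyte markers summed to 12.5 and 4.98 CPM in replicates 1 and 2 of treated E0771 cells. Most of this was Cd68, at 11.5 and 4.18 CPM, while 5 and 3 of the markers were at 0, so they did not all move alike. A link to the members was not tested. The members therefore varied together between the treated E0771 libraries, and their standard errors in that line are the widest.

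Compared per length, as CPM per kb of exon, the composition of the family changed with treatment. Irgm1 led the controls of CT26 and E0771 and came after Igtp in MC38. It made up 30.4% of the summed level of the 8 genes in CT26 controls, 55.5% in E0771 and 33.3% in MC38, and 19.4%, 17.2% and 17.0% after the RIG-I agonist. Igtp was then the leading transcript in every line, at 149 ± 0.849 (SD, n = 3), 107 ± 20.9 and 124 ± 2.76 CPM per kb (SD, n = 2). Gm12250 went from 0.319%, 0.712% and 1.64% to 4.04%, 14.7% and 14.1% in CT26, E0771 and MC38. The share of Iigp1 rose from 5.03%, 1.03% and 3.90% to 8.72%, 7.47% and 6.92%. CT26 stood out by Tgtp1 with either agonist. Its share in controls was 14.1%, against 0.924% in E0771 and 4.86% in MC38, and in treated cells 17.8% against 3.96% and 11.5%. This share rests on the uncertain split between Tgtp1 and Tgtp2. Shares of this kind have no test here, and the lengths are those of the annotation, not of the transcripts used by these cells.

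**Figure D5:**
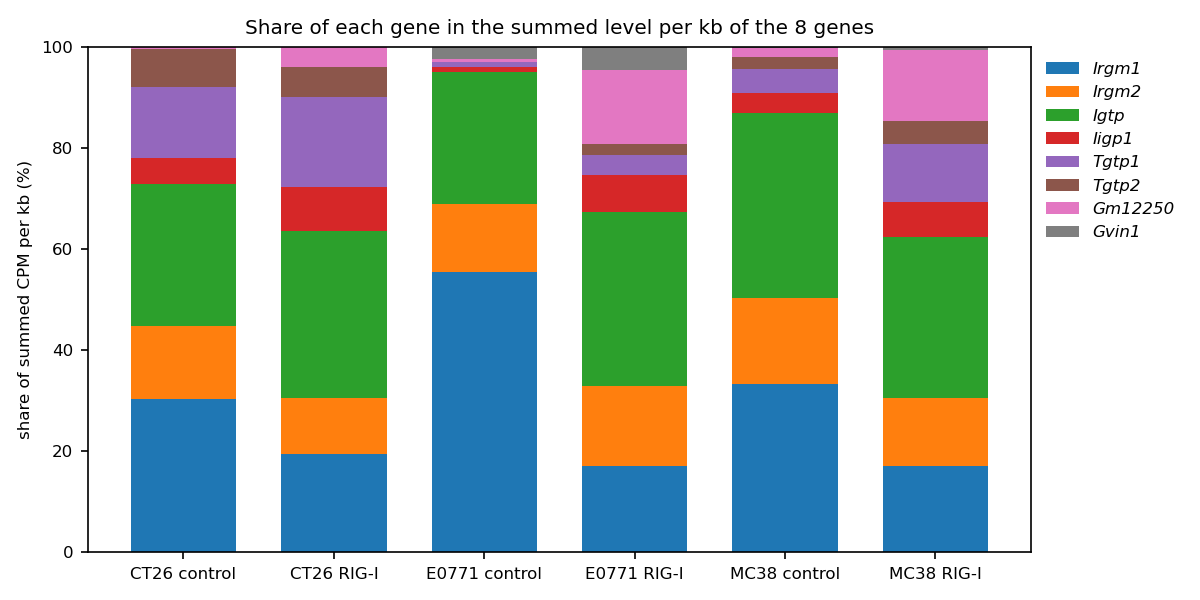
Share of each gene, in percent, of the summed CPM per kb of exon of the 8 genes, from group means. Irgm1 (blue) shrinks to 17.0 to 19.4% and Gm12250 (pink) grows with the RIG-I agonist in every line; Gvin1 is counted apart from its near-identical neighbour.

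Further genes of the family moved with the members. Of 11 relatives with counts listed in the tables, 10 were tested in CT26 and 9 rose, 9 were tested in E0771 and 3 rose, and 9 were tested in MC38 and 7 rose, with none lower. Among all genes tested, 19.8%, 1.53% and 18.9% were called higher in these lines. Their median log2 fold changes were 2.18, 5.07 and 2.40. Gm4841 had the largest change in CT26 at 3.50 (SE 0.10), and was at 5.07 (SE 0.61, adjusted p = 0.0302) in E0771 and 2.56 (SE 0.21) in MC38. Gm5431 followed in CT26 at 3.17 (SE 0.22). Irgq was at 0.15 (SE 0.09, adjusted p = 0.238), -0.11 (SE 0.14, adjusted p = 0.862) and -0.03 (SE 0.08, adjusted p = 0.809), and Irgc1, known from the testis, had at most 2 counts in any group. F830016B08Rik went from 1.80, 2.33 and 2.84 CPM to 17.1, 18.2 and 17.3 CPM in CT26, and in MC38 was at 0.901 and 0.921 against 1.46 and 1.63 CPM (adjusted p = 0.101).

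The guanylate-binding proteins, which are recruited to vacuoles together with the GKS effectors, rose to a similar extent. All 11 tested in CT26 rose, 8 of 9 in E0771 and all 8 in MC38, with medians of 2.81, 5.61 and 2.43. The shares of all genes called higher were 19.8%, 1.53% and 18.9%. Gbp5 had the largest change in CT26 (3.92, SE 0.07), Gbp4 in E0771 (6.38, SE 0.32) and Gbp10 in MC38, where its controls held 2 counts and the ratio of counts was 17.8 (exact 95% interval 4.61 to 152). Gbp8 was the gene not called in E0771 (48 counts against 1, adjusted p = 0.151), and Gbp7 had the smallest called change there (4.84, SE 0.41).

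Upstream, the interferon pathway was raised at a subset of its genes. Of the 17 genes listed, 10 rose and 1 fell of 16 tested in CT26, 5 rose of 16 in E0771, and 10 rose and 1 fell of 15 in MC38. Of all genes tested, 19.8% were called higher and 18.6% lower in CT26, 1.53% higher in E0771, and 18.9% higher and 17% lower in MC38. Ifnb1, which encodes interferon beta, went from 0.0555, 0.0993 and 0.26 CPM to 107, 109 and 113 CPM in CT26. It reached 13.4 and 13.9 CPM in E0771 and 3.42 and 3.63 CPM in MC38, from 1 and 2 control counts in all. Ifng, the gene of interferon gamma, had at most 1 count in any group. Irf1, a transcription factor of the interferon response, rose by 1.59 (SE 0.06), 2.40 (SE 0.15) and 0.86 (SE 0.04) in CT26, E0771 and MC38. The genes that fell were Ifnar1, a chain of the type I interferon receptor, in CT26 (-0.19, SE 0.06, adjusted p = 0.0224), and Ifngr1, a chain of the interferon gamma receptor, in MC38 (-0.36, SE 0.07, adjusted p = 0.000326).

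The listed autophagy genes were mostly not called. They include the conjugation machinery that guides GKS effectors to vacuoles, and genes outside it such as Trim21 and Sqstm1. Of 16 tested in each line, 4 rose in CT26 (19.8% of all genes called higher), 1 in E0771 (1.53%) and 5 in MC38 (18.9%), none fell, and the median log2 fold changes were 0.00, -0.02 and 0.05. The ubiquitin ligase gene Trim21, itself an interferon-stimulated gene, was the one called in all 3 lines, by 2.07 (SE 0.07), 2.74 (SE 0.19) and 1.15 (SE 0.08). Atg16l1, part of the conjugation complex, rose by 0.39 (SE 0.06, adjusted p = 0.000202) in CT26, and Sqstm1, an autophagy receptor, by 0.45 (SE 0.03, adjusted p = 4.76e-10) in MC38. Sqstm1 was at -0.12 in CT26 (adjusted p = 0.134) and 0.44 in E0771 (adjusted p = 0.42).

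Across the 14 libraries most members varied together. Pairwise Pearson correlations of log2 CPM among Irgm1, Irgm2, Igtp and Iigp1 were 0.979 to 0.993, Tgtp1 and Tgtp2 correlated at 0.988 with each other, and Gm12250 at 0.692 to 0.903 with these 6. Gvin1 stood apart, at -0.157 to 0.452, with its CT26 values at 0. Of 14657 genes compared, the 3 most alike to each member included Gbp2 (0.991) and Psmb9 (0.991) for Irgm1, Birc3 (0.985) and Ifih1 (0.972) for Irgm2, and Ifih1 (0.989) and Trim21 (0.987) for Igtp. The most alike to Iigp1 was Gbp2 (0.988), to Tgtp1 (0.997) and Tgtp2 (0.990) Ifi47, the gene of the relative Irgd, to Gm12250 Trafd1 (0.987) and to Gvin1 Vnn1 (0.982). These values describe 14 libraries that share lines and treatment, and they carry no test.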

How the data were processed

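The authors deposited 3 tables of estimated counts per gene, 1 per line, and Salmon, DESeq2 and GRCm38 appear in the submitters' processing notes with no role or version. Their annotation is not given in the sources used here. Of the deposited values, 69.1% to 85.3% per library were exactly whole; all were rounded. Identifiers were matched without version to GENCODE M21 (34652 of 34866). Groups come from the sample titles.

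Each line was fitted alone with edgeR 4.0.16 in R 4.3.3 (TMM scaling, filterByExpr with a minimum count of 10, quasi-likelihood F test, Benjamini-Hochberg adjustment over all genes, called under 0.05). Differences between lines come from 1 fit of all 14 libraries. CPM uses each line's TMM scale, which differs from the joint scale by a factor of 0.961 to 1.06. Fold changes use a prior count of 0.125 and correlations one of 2. The script was tested on simulated data.

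The members and lists were chosen with earlier results of these data known. All 8 members are named, and of each related list mainly those with the largest and smallest changes, beside Irf1, Ifnb1 and Ifng. Some genes covered by this rule are not reported here. Other genes of these lists (Gm4070, F830016B08Rik, Trim21, Atg16l1, Sqstm1, Ifnar1, Ifngr1) the markers Fcgr1 and Kdr, and Ifi47 and Gm12185 were named after their values were seen. Alternatives were DESeq2 1.42.0, RLE scaling, no filter, protein-coding genes only, limma 3.58.1 with a variance factor per line, 1 spread for all libraries, summed near-identical genes, a replicate block and leaving out each library.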

Additional observations from a re-analysis of the deposited data

Results flagged for a closer look

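The size of the RIG-I effect differed between lines by the interaction test of the edgeR quasi-likelihood fit of all 14 libraries, with adjustment over all genes. This fit shares its spread between lines, with a biological coefficient of variation of 0.122, against 0.202 in E0771 alone. Under limma with a variance factor for each line, Iigp1, Tgtp1 and Tgtp2 lost their calls in both E0771 contrasts. CT26 minus E0771 on the log2 scale was -1.005 for Irgm1 (adjusted p = 0.00808), -2.63 for Irgm2 (adjusted p = 0.00101), -2.21 for Igtp (adjusted p = 0.00013), -4.11 for Iigp1 (adjusted p = 0.00203) and -3.78 for Tgtp1 (adjusted p = 0.000148). Tgtp2 differed in the same direction with an adjusted p of 0.000346. E0771 minus MC38 was 1.69 for Irgm1 (adjusted p = 0.000444), 2.98 for Irgm2 (adjusted p = 0.00087), 3.00 for Igtp (adjusted p = 1.8e-05), 4.44 for Iigp1 (adjusted p = 0.00206) and 3.24 for Tgtp1 (adjusted p = 0.000922), and Tgtp2 had an adjusted p of 0.0023. CT26 minus MC38 was 0.79 for Igtp (adjusted p = 0.0416). The E0771 controls were the lower control group for these genes in both E0771 contrasts.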

How the results depend on the processing

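Over the alternatives run, 6 to 8 members were called higher in CT26 and in E0771, and 7 to 8 for MC38, where summing Tgtp1 with Tgtp2 and testing only protein-coding genes (which drops Gm12250) each take away 1 by construction. No within-line change of a member turned. Members called for the CT26 minus MC38 difference in effect went from 1 to 3 under DESeq2, 2 with RLE size factors, 2 with no filter on low counts, 2 with protein-coding genes only and 4 under limma with a variance factor per line. Under limma the count for CT26 minus E0771 went from 6 to 3 and for E0771 minus MC38 from 6 to 3. The cause was not tested. Leaving out 1 library gave 0 to 6 members for the CT26 minus MC38 effect, 4 to 7 (from 7) for the treated level of CT26 minus MC38, with 4 without MC38 RIG-I replicate 1, and 2 to 7 (from 3) for that of E0771 minus MC38, with 7 without E0771 RIG-I replicate 2. Directions turned without 1 library for Irgm2 treated levels (CT26 minus MC38 -0.0061 without CT26 RIG-I replicate 1 and -0.0012 without MC38 RIG-I replicate 2, in a range up to 0.067) and for the Gvin1 control level of E0771 minus MC38 (-1.56 without E0771 control replicate 1 and -0.014 without MC38 control replicate 1, in a range up to 1.33). Without E0771 RIG-I replicate 1 the treated level of Irgm2 turned to -0.27 for CT26 minus E0771 (adjusted p = 0.00686), and E0771 minus MC38 turned to 0.28 for Irgm2 (adjusted p = 0.00989), 0.20 for Iigp1 and 0.18 for Gm12250. Without E0771 RIG-I replicate 2 these 4 were 0.70, -0.69, -0.90 and -1.004. Gvin1 lost its E0771 call with no filter (adjusted p = 0.334) and its MC38 call with 1 spread over all libraries (adjusted p = 0.0506).

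The labels do not say that replicate numbers pair libraries, and same-numbered control and treated libraries did not deviate together in every line (correlations 0.0924, 0.0842 and 0.262 in CT26, 0.639 in E0771, -0.018 in MC38), so they were not taken as pairs. With the replicate number as a block, members called went to 3 for the CT26 minus MC38 effect (Iigp1, Tgtp1 and Gm12250, with Igtp at an adjusted p of 0.0743), 3 (from 5) for its control level, 4 for its treated level and 5 for the treated level of E0771 minus MC38, where Irgm2 (-0.57), Iigp1 (-0.87) and Gm12250 (-1.03) were also called and Gvin1 was not (adjusted p = 0.0944). In E0771 the block gave an adjusted p of 0.0738 for Irgm1 and 0.181 for Gvin1. For CT26 minus E0771 it gave 0.0672 for the Irgm1 effect, 0.178 for the Gvin1 control level and 0.00267 for the Gm12250 effect, and 8.2e-05 for the Gm12250 effect of E0771 minus MC38.

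Counts over all genes depended more on the tool. E0771 had 183 genes called, 418 under DESeq2, 286 with no filter, 1587 with 1 spread over all libraries and 2461 with the block. MC38 had 4441, 2256 under DESeq2 and 999 with 1 spread, and CT26 5334 and 3503 with 1 spread. For the effect differences of CT26 minus E0771, CT26 minus MC38 and E0771 minus MC38, the counts were 569, 557 and 307, 202, 2592 and 166 under limma, 1538, 1817 and 880 with the block, and 977 and 510 for the last 2 under DESeq2. Depth limits the E0771 controls most, where Tgtp2, Gm12250 and Tgtp1 rest on 0, 3 and 10 counts.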

Other observations

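Relatives named after their values had been seen behaved like the members. Ifi47, the gene of the GTPase Irgd at chr11:49076587-49096974, was at 40.3 to 43.7 CPM in CT26 controls and 175 to 181 CPM in treated cells, and rose by 2.08 (SE 0.05), 5.37 (SE 0.39) and 2.64 (SE 0.07) on the log2 scale in CT26, E0771 and MC38. Its RefSeq promoter window held neither motif. Gm12185, whose annotated span overlaps Tgtp1, rose by 2.92 (SE 0.12), 5.27 (SE 0.60) and 4.66 (SE 0.24), and all 6 changes were called (edgeR quasi-likelihood test). The promoter entry of Gm12185 carries the shared motif arrangement, which may be the same genomic site as that of Tgtp1.

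With the members left out, genes whose promoter entry held the response element were called higher more often than those without it, in 41.2% of 398 against 18.9% of 9364 tested genes in CT26, 17.1% of 339 against 0.836% of 8495 in E0771 and 38.9% of 355 against 18.7% of 8920 in MC38. These are shares with no test, and a match is a description of letters.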
